A study of Rattus norvegicus with 8 samples.

Results

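Mitochondrial ribosomal protein genes are described here as they were measured in the rat hypothalamus of both sexes. They were taken as all array probes whose gene name in the files begins with Mrpl or Mrps followed by a digit. This gave 81 probes for 70 genes, on 153 of 42877 spots, out of 30367 probes and 17390 named genes in all. Of these, 51 probes for 42 genes carry large-subunit names (Mrpl) and 30 probes for 28 genes carry small-subunit names (Mrps). The names mrpl9, mrpl11 and mrpl24 are written in lower case in the files and fall outside the rule. Mrps36 carries a ribosomal name but is now called Kgd4, a subunit of the alpha-ketoglutarate dehydrogenase complex.

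The hypothalamus of 4 females in estrus and 4 males was compared, all Sprague Dawley rats from Taconic, aged 3 to 4 months and housed singly under a long light phase. Total RNA of 1 female and 1 male was labelled in opposite dyes (Cy3, green, and Cy5, red) and hybridised together on each of 4 arrays. The dyes were swapped between arrays, with females in Cy3 and males in Cy5 on arrays 1 and 3 and the reverse on arrays 2 and 4. Animals are numbered by their array, so that female 1 and male 1 shared array 1. Because every female was in estrus, sex and stage of the cycle cannot be told apart.

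Mitochondria carry their own small genome, whose messages for core subunits of the respiratory chain are translated by a dedicated ribosome. All of its proteins are encoded in the nucleus, made in the cytosol and imported, and they assemble into a small subunit, which decodes the message, and a large subunit, which forms the peptide bond. Neurons draw heavily on oxidative phosphorylation, so this machinery is expressed throughout the brain.

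A probe on these arrays is a 60-base oligonucleotide, and the sequences below belong to the genes whose probes the results turn on. Mrpl2, the counterpart of a core bacterial protein near the catalytic centre of the large subunit, has 2 probes on chromosome 9 of the rn4 build that lie side by side. The first (chr9:10019812-10019871) ends in the letters TAG, and the second (chr9:10019974-10020033) holds a polyadenylation signal. TAG closes a reading frame of the probe, but another frame holds no stop. Whether TAG ends the Mrpl2 protein was not tested. The letters TAG and the signal are marked in capitals, and the second sequence is the 30-base stretch around that signal.
Mrpl2 A_64_P077613: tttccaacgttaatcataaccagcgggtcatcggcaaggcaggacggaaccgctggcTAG
Mrpl2 A_64_P114104: cccctggactcaAATAAAatgttccttgtt

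Mrpl41, a large-subunit protein with no bacterial counterpart, has 2 probes that overlap over 44 bases, offset by 16. They differ in that overlap by C48T, with positions counted from the 5′ end of A_64_P127357. The 30 bases around this mismatch, in capitals, follow. The probes lie on chromosome 3 of rn4 (chr3:5120436-5120495 and chr3:5120420-5120479).
Mrpl41 A_64_P127357: ctgttccaattgtatccCaagaatttccca
Mrpl41 A_64_P135305: ctgttccaattgtatccTaagaatttccca

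Mrpl54, a protein near the stalk of the large subunit, also has 2 overlapping probes, offset by 19 bases. Over 41 shared positions they differ by G33C, A45G and G60A, counted from the 5′ end of A_64_P004086 and shown in capitals.
Mrpl54 A_64_P004086: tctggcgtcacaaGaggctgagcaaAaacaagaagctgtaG
Mrpl54 A_42_P613321: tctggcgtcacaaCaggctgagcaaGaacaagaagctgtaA

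Mrpl18, the counterpart of a bacterial protein that binds 5S ribosomal RNA, has 1 probe, on chromosome 1 of rn4 (chr1:42116388-42116447). Its first 30 bases are shown because it had the highest sex ratio of the family.
Mrpl18 A_44_P1025208: gtccccattcttggacatgagatgtattta

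Differences are given as the log2 ratio of female over male within an array, fitted over the 4 arrays with a term for dye, ± its standard error. Levels are log2 normalized signals of each sample in its own dye channel, and they compare samples of the same probe. Where probes are ordered by signal, the order is one of spot brightness and not of transcript level. Median signals were 502 to 530 intensity units in Cy3 and 148 to 272 in Cy5, 0 spots were saturated, and the number of arrays limits the precision. Male replicate 2 stood apart in markers of the region dissected. Its median deviation for 14 markers of hypothalamic neurons was -2.19 on the log2 scale, against -0.06 to 0.88 in the 7 other samples, and for 8 markers of cortex, hippocampus and striatum it was 1.17, against -0.48 to 0.34. Counts over lists are given below with and without replicate 2.

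The ratios of several marker lists lay mostly on 1 side of 0. Over all probes 56.1% were above 0, and 57.4% without replicate 2. Of 14 markers of hypothalamic neurons 13 were above 0, with a median of 0.82, as were 6 of 6 of meninges (0.55) and 6 of 6 of pituitary (0.45). Without replicate 2 these were 7 of 14 (0.03), 6 of 6 (0.26) and 3 of 6 (-0.07). Of 7 markers of oligodendrocytes 0 were above 0, with a median of -0.25, and 2 of 6 without replicate 2 (-0.15). Their median deviation was -0.33 to -0.12 in the 4 females and 0.01 to 0.29 in the 4 males, without overlap. Meninges gave -0.23 to 1.17 in females and -1.36 to 0.32 in males, and pituitary -0.08 to 0.24 and -1.02 to 0.47. Of 5 markers of ependyma and choroid plexus 3 were above 0 (0.08), and 2 of 5 without replicate 2 (-0.24). Their median deviation in male 4 was 0.26, against -0.38 to 0.46 in the other samples. Among them Ttr had the lowest ratio of all probes tested, at -1.79. It read 16.49 in male 4, against 10.92 to 13.79 in the other samples. All these markers were well above background in all 8 samples, except Gh1 of the pituitary, in 2 of 4 males. Prl, of the pituitary, and Kl, of the choroid plexus, did not pass the filter. Of the tested markers on the other lists, 1 of 5 of endothelium were above 0, 2 of 2 of blood and 4 of 6 of microglia. For cortex, hippocampus and striatum it was 3 of 8, for astrocytes 3 of 6, for neurons 2 of 5 and for thalamus 1 of 2. Without replicate 2 these counts were 1 of 5, 0 of 2, 5 of 5, 4 of 8, 2 of 6, 3 of 5 and 1 of 2 in that order. The part of male 2, of male 4 and of these cell types in the results below was not tested. In whole tissue, fewer cells of a type and less RNA per cell cannot be told apart.

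The mitochondrial ribosomal protein genes were expressed in every animal. Of the 81 probes, 79 passed the filter on dim probes, and 78 were well above background in all 8 samples. The other tested probe, of Mrps10, was so in 3 of 4 females and in all 4 males. Mrps28, a small-subunit protein, was well above background in 0 of 8 samples, and 1 of the probes of Mrpl30 (A_64_P044485) in 2 females and 2 males. The other Mrpl30 probe (A_64_P153637) was measured in full.

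No member passed the test for a difference between the sexes beyond the spread of the arrays. The count past an adjusted p of 0.05 was 0 of 79 probes (limma, Benjamini-Hochberg over 21995 probes), and it was also 0% of all probes. At an unadjusted p under 0.05, 5 members were higher in females, where the background over all probes was 4.98%, and 0 were higher in males, where it was 3.52% (8.5% in either direction). The 5 were Mrpl18, Mrpl38, Mrps36 and both probes of Mrpl2. These counts depended on single arrays. Without replicate 1, 2 or 3 the count higher in females was 1 in each case, where the share of all probes was 1.17%, 4.17% and 1.26%. The count higher in males was 1 without replicate 1 (2.86%). Without replicate 4 it was 15 (16.8% of all probes), with 5 higher in males (12.9%). In that fit 6.78% of all probes passed the adjusted threshold. Of the members, Mrpl18 did so with a ratio of 0.55 (limma, adjusted p = 0.0471) and Mrpl3 with -0.47 (limma, adjusted p = 0.0460). Array 2 weighed as much there as arrays 1 and 3 together, which share the opposite dye order. The ratios on arrays 1 to 3 were 0.22, 0.98 and 0.01 for Mrpl18 and -0.03, -0.90 and -0.04 for Mrpl3. Array 2 held male 2, which stood apart in markers of the region dissected. In the same fit 10 of 14 markers of hypothalamic neurons passed the adjusted threshold. The part of male 2 in both calls was not tested.

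As a list the members leaned towards females by a small amount. The fitted ratio was above 0 for 57 of the 79 probes, or 72.2%, against 56.1% of all probes tested. The median ratio of the members was 0.087, against 0.020 over all probes. Large- and small-subunit names gave like values, with 36 of 50 and 21 of 29 above 0 and medians of 0.095 and 0.087. Without replicate 2, 64 of 79 were above 0 (57.4% of all probes) and the median was 0.046, against 0.021 over all probes.

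**Figure D1:**
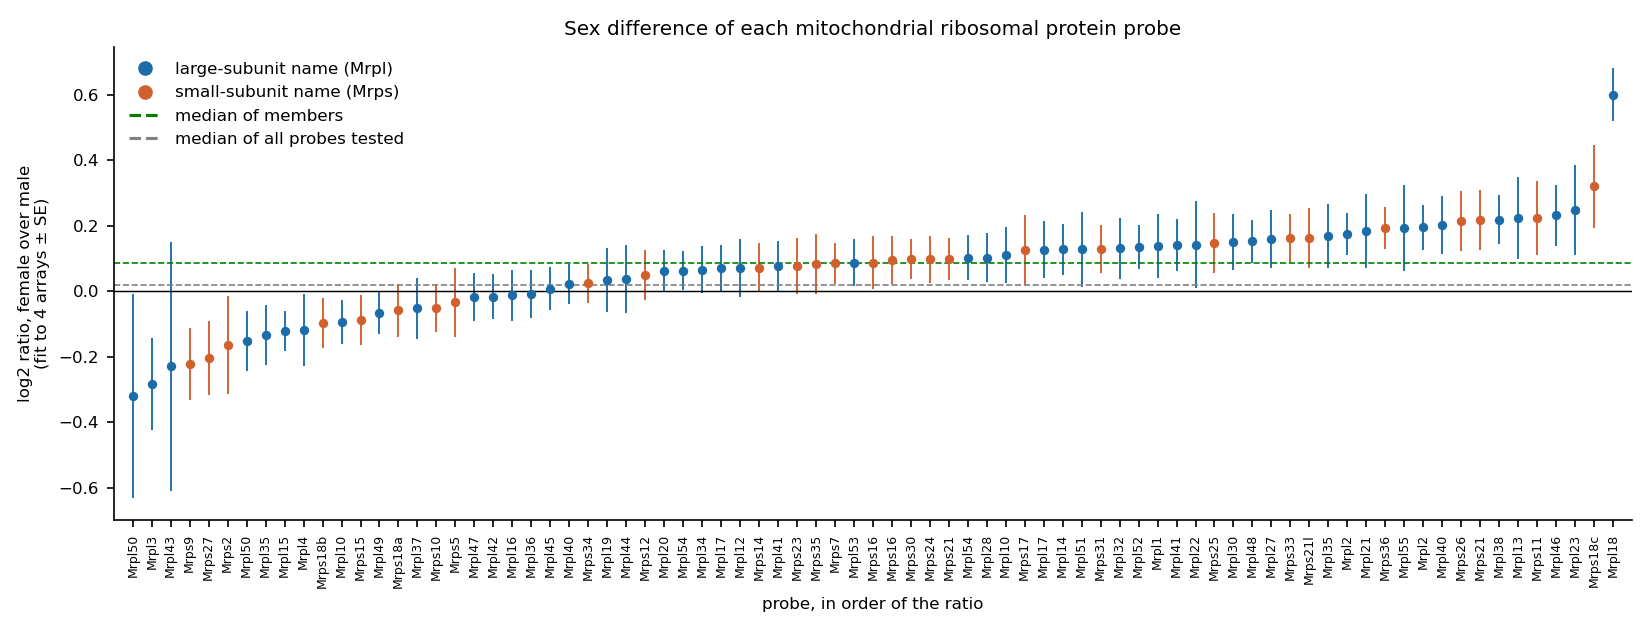
Fitted log2 ratio of female over male (vertical axis, ± SE of the fit to 4 arrays) for each of the 79 member probes in order of the ratio, blue for Mrpl and orange for Mrps names, with the medians of members and of all probes as dashed lines. Mrpl18 stands alone at 0.60, and the other 78 points lie between -0.32 and 0.32.

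The lean differed between arrays. The members' median ratio was 0.16 on array 1, 0.052 on array 2, 0.037 on array 3 and -0.058 on array 4, while the median of all probes lay between -0.013 and 0.015. On array 1, 55 of 79 members were above 0, on array 2 44, on array 3 49 and on array 4 32. Array 4 thus had its members' median below 0, and the other 3 arrays above it. After the dye effect was removed, the members' median deviation was 0.063, 0.074, 0.008 and 0.015 in females 1 to 4. It was -0.094, -0.065, -0.006 and 0.036 in males 1 to 4. Males 1 and 2 were the lowest samples and male 4 lay among the females, so the sexes overlapped.

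**Figure D2:**
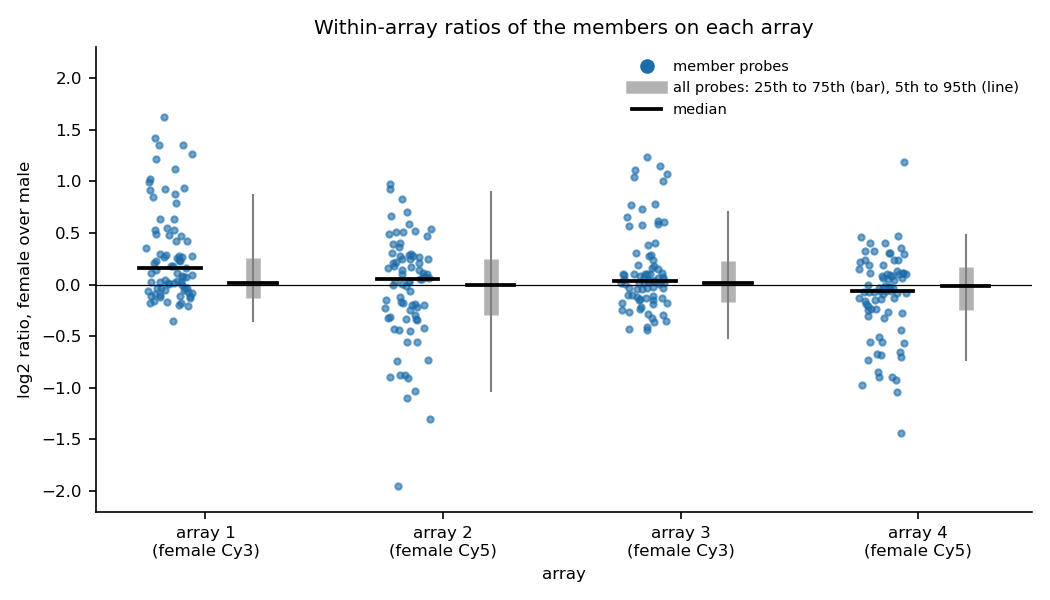
Log2 ratio of female over male (vertical axis) of the 79 member probes on each of the 4 arrays (blue points), with grey bars for the 25th to 75th and lines for the 5th to 95th percentile of all probes tested, and black bars for medians. The members spread upwards on arrays 1 and 3, where females carried Cy3. On arrays 2 and 4, where females carried Cy5, the members' 5th percentiles were -0.92 and -0.90, and their 95th were 0.67 and 0.40.

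The lean also went with signal strength. Of the 40 members with the brighter signals, 36 had a ratio above 0 (90.0%), against 60.0% of all probes as bright or brighter. Among the 39 dimmer members it was 21 (53.8%), against 54.8% of all probes below that signal. Across the 79 probes the ratio correlated with the mean level at r = 0.48, and at 0.06 across all probes, as a description over probes that share arrays and scans. Without replicate 2 the counts were 39 of 40, against 62.5% of all probes as bright, and 25 of 39, against 55.9%. This split was chosen after the values were seen. A probe's signal depends on its sequence as well as on its transcript.

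**Figure D3:**
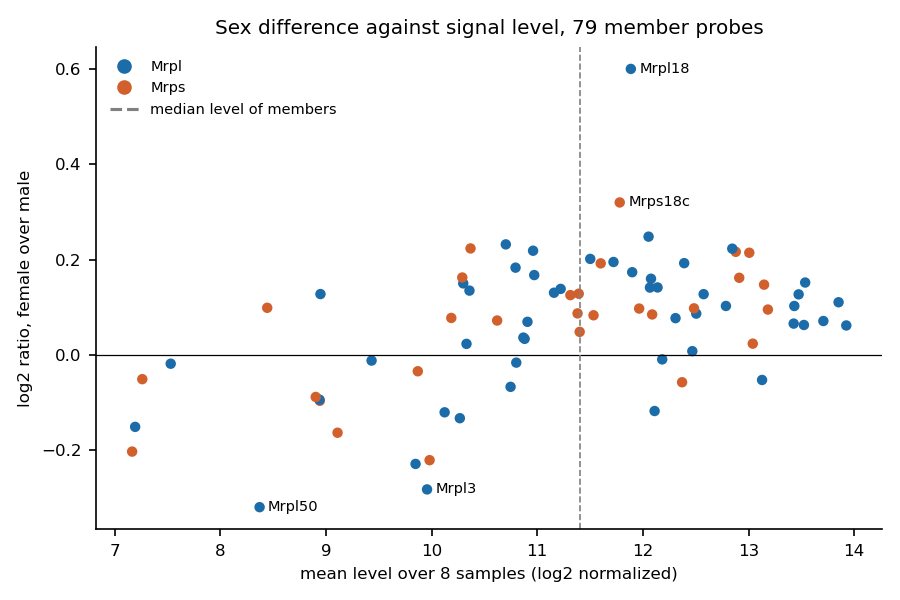
Fitted log2 ratio of female over male (vertical axis) against the mean log2 normalized level over 8 samples (horizontal axis) for the 79 member probes, blue for Mrpl and orange for Mrps names, with a dashed line at the median level. Points to the left of the line lie on both sides of 0, and 36 of the 40 at or to the right of it lie above 0.

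The central protuberance is the part of the large subunit that faces the small subunit, and in mammals it holds a transfer RNA in place of 5S ribosomal RNA. All 8 of its members on the list (Mrpl18, Mrpl27, Mrpl38, Mrpl40, Mrpl46, Mrpl48, Mrpl52 and Mrpl55) had a ratio above 0. The share above 0 was 72.2% over all member probes and 56.1% over all probes. This list was chosen with earlier results of these data known, and its genes share the same 4 arrays. The difference between these shares was not tested. The median of the 8 was 0.20, in a range from 0.13 to 0.60, each gene by its brightest probe. Without replicate 2 all 8 were again above 0 (57.4% of all probes), between 0.06 and 0.65, with a median of 0.17. For 5 of the 8 the dye effect passed an adjusted p of 0.05 (limma), which 12.7% of all probes did. Their median ratio was 0.51 and 0.33 on arrays 1 and 3, 0.09 on array 2 and -0.15 on array 4.

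Mrpl18 was the member with the highest ratio. Its levels in females 1 to 4 were 12.02, 12.51, 11.73 and 12.49. In males 1 to 4 they were 11.79, 11.54, 11.71 and 11.30. Female 3 lay below male 1, so the raw levels of the sexes overlapped, and 0 of 81 members had levels that did not overlap (1.24% of all probes with females above, 1.65% with males above). The ratios on arrays 1 to 4 were 0.22, 0.98, 0.01 and 1.19, so they were large where females carried Cy5 and small where they carried Cy3. The fitted ratio was 0.60 ± 0.08, a 1.52-fold higher level in females (limma, unadjusted p = 0.0013, adjusted p = 0.555). It was the single member that differed by at least 1.5-fold (1.75% of all probes), and that did so at an unadjusted p under 0.05 (0.814%). The dye effect was 0.48 towards Cy5 (limma, adjusted p = 0.0365). With that effect removed, the 4 females lay between 11.97 and 12.27 and the 4 males between 11.47 and 11.78, without overlap. Leaving out single replicates moved the ratio between 0.55 and 0.65, and its adjusted p between 0.0471 and 0.980.

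Mrpl18 starts 425 bases from the start of Tcp1, a subunit of the cytosolic chaperonin, on the opposite strand (RefSeq, GRCr8). The ratio of Tcp1 was 0.22 ± 0.10 (limma, unadjusted p = 0.0893).

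Mrpl38, a central protuberance protein, was measured at 11.50, 10.58, 11.53 and 10.66 in females 1 to 4. Males 1 to 4 gave 10.16, 11.32, 10.42 and 11.51. The samples fell into a high and a low set by dye, with all 4 Cy3 samples above all 4 Cy5 samples. The fitted ratio was 0.22 ± 0.08 (limma, unadjusted p = 0.0415, adjusted p = 0.555), beside a dye effect of -1.01.

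Mrpl46, another central protuberance protein, had levels of 11.39, 10.18, 11.22 and 10.49 in females 1 to 4. The 4 males stood at 9.76, 11.21, 9.99 and 11.39 in the same order. Here too the Cy3 samples of both sexes were the high ones. The ratio was 0.23 ± 0.09 (limma, unadjusted p = 0.0640) and the dye effect of -1.20 was the largest of the family.

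Mrpl46 and Mrps11, a small-subunit protein of the platform, face away from each other on chromosome 1 with starts 234 bases apart. Their ratios were alike, at 0.23 ± 0.09 and 0.22 ± 0.11. The levels of Mrps11 in females 1 to 4 were 10.78, 10.36, 10.71 and 10.07, and in males 1 to 4 they were 9.79, 10.55, 9.94 and 10.75. As for Mrpl46, all 4 Cy3 samples lay above all 4 Cy5 samples, and the dye effect was -0.66. The 233 bases between both starts (RefSeq, GRCr8, plus strand, chr1:142117031-142117263) are shown as the shared upstream region of the pair whose genes are both members. They held none of the 5 motifs searched below.
Mrpl46 and Mrps11: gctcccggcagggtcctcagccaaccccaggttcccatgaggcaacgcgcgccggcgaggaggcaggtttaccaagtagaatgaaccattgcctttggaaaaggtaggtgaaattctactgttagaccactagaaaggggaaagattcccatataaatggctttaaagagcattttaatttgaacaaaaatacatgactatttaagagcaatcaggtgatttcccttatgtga

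Neighbours did not always stand on the same side of 0. Of 13 pairs of a member and a gene on the opposite strand, with starts within 1000 bases and both tested, 8 had ratios of the same sign and 5 of opposite sign. The share of ratios above 0 was 72.2% over member probes and 56.1% over all probes. Whether neighbours shared a sign more often than other genes was not tested. The ratio of Mrps18c was 0.32 and that of Helq, which starts 72 bases away, -0.04. Mrpl30 stood at 0.15 and Mitd1 at -0.19, and Mrpl49 at -0.07 and Fau at 0.14. Mrpl37 stood at -0.05 and Cyb5rl at 0.12, and Mrpl47 at -0.02 and Ndufb5 at 0.08.

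Of the others in the central protuberance, Mrpl48 had a ratio of 0.15 ± 0.07 and Mrpl55 one of 0.19 ± 0.13. Mrpl27, the counterpart of a bacterial protein that reaches towards the catalytic centre, had a ratio of 0.16 ± 0.09 beside a dye effect of -1.07. Mrpl52 had a ratio of 0.13 ± 0.07. Mrpl40 had a ratio of 0.20 ± 0.09 by its brighter probe and 0.02 ± 0.06 by the other.

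The stalk of the large subunit recruits the translation factors. By their brightest probes its 5 genes, with mrpl11 counted in, had ratios from 0.06 to 0.12 and a median of 0.087. Mrpl12, the stalk protein that also binds the mitochondrial RNA polymerase, was measured at 13.83, 13.83, 13.69 and 13.62 in females 1 to 4. The levels of males 1 to 4 were 13.57, 13.69, 13.67 and 13.76. Its sexes overlapped, with a ratio of 0.07 ± 0.09. Of the 7 genes at the exit tunnel, through which the new peptide leaves, 5 had a ratio above 0 (56.1% of all probes), with mrpl24 counted in. Their median was 0.036. The highest was Mrpl23, at 0.25 ± 0.14. Without replicate 2 the stalk had 5 of 5 above 0, with a median of 0.06, and the exit tunnel had 4 of 7, with a median of 0.01.

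Near the catalytic centre, both probes of Mrpl2 gave sex ratios that differed by less than their standard errors, with dye effects of opposite sign. Probe A_64_P077613 read 11.75, 12.17, 11.80 and 12.23 in females 1 to 4. Their male partners on the same arrays gave 11.86, 11.77, 11.79 and 11.83. Females 2 and 4, both in Cy5, were the high samples, and the ratio was 0.17 ± 0.06 (limma, unadjusted p = 0.0499). Probe A_64_P114104 read 12.24, 11.39, 12.24 and 11.41 in females 1 to 4. In males 1 to 4 it read 10.97, 12.13, 11.09 and 12.31. All its Cy3 samples were above all its Cy5 samples, and the ratio was 0.20 ± 0.07 (limma, unadjusted p = 0.0447). The dye effects were 0.22 and -1.01, and the probes hold 55.0% and 40.0% G and C bases.

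**Figure D4:**
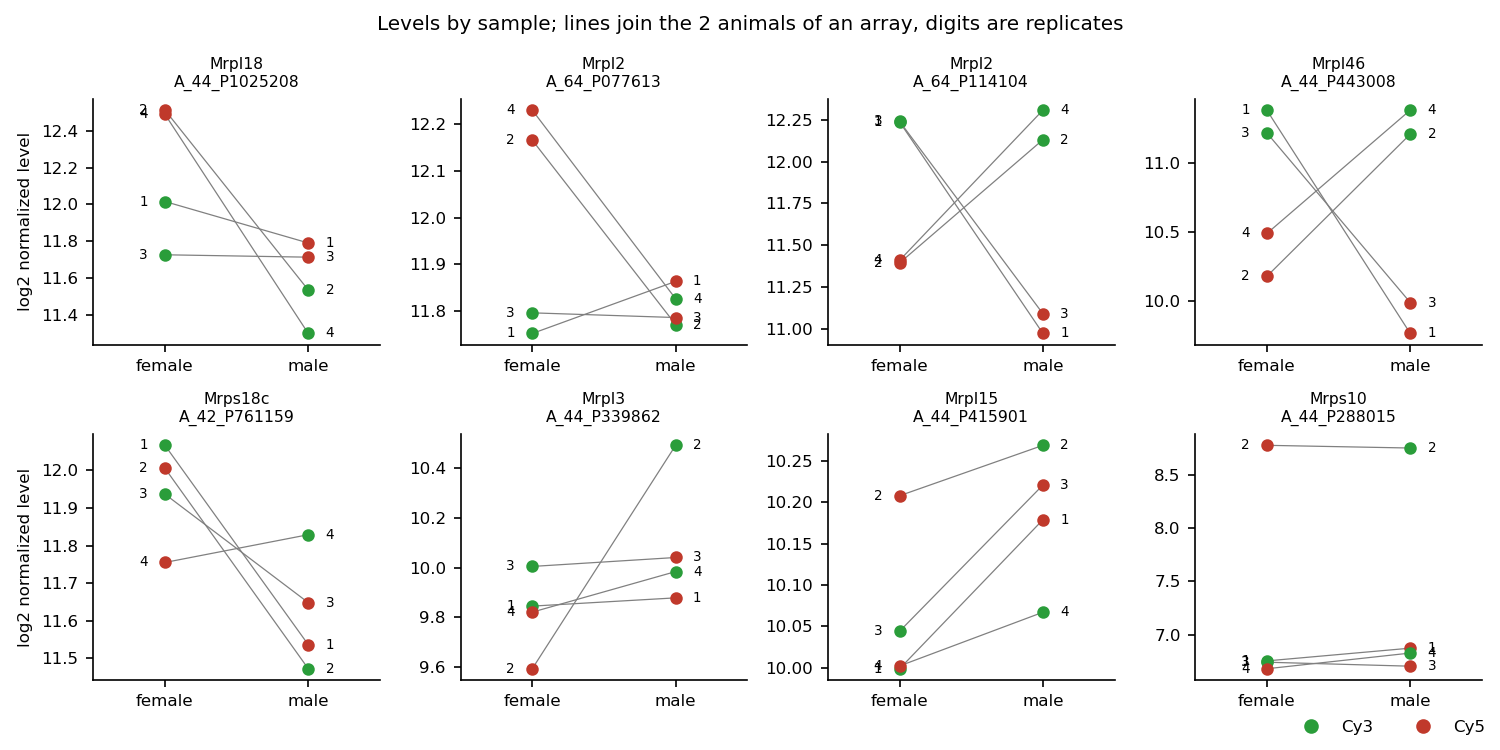
Log2 normalized level (vertical axis) of 8 member probes in the 4 females and 4 males (horizontal axis), green for Cy3 and red for Cy5, with grey lines joining the animals of 1 array and digits for the replicates. The green points stand above the red ones for Mrpl46 and for Mrpl2 A_64_P114104, and replicate 2 of both sexes stands above the rest for Mrps10.

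Mrpl3, the counterpart of a core bacterial protein of the large subunit, had the lowest ratio among members with a ratio below 0 on all 4 arrays. Its levels in females 1 to 4 were 9.85, 9.59, 10.01 and 9.82. Males 1 to 4 gave 9.88, 10.49, 10.04 and 9.98. Male 2 was the highest sample and female 2, on the same array, the lowest. The ratio was -0.28 ± 0.14 (limma, unadjusted p = 0.109), and without replicate 2 it was -0.10 ± 0.07.

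Only Mrpl3 and Mrpl15 of the 79 members were below 0 on all 4 arrays (5.8% of all probes were). Above 0 on all 4 arrays were Mrpl18, Mrps24 and Mrps30 (5.24% of all probes were). Mrpl15, a core protein of the large subunit, read 10.00, 10.21, 10.04 and 10.00 in females 1 to 4. The 4 males stood at 10.18, 10.27, 10.22 and 10.07 in the same order. Female 2 lay within the male range, so the sexes overlapped. Its ratio was -0.12 ± 0.06 (limma, unadjusted p = 0.112).

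With the dye effect removed, all females lay above all males for 5 members, where the background was 4.04% of all probes. These were Mrpl18, Mrps18c, Mrps21 (A_64_P117620), Mrps21l and Mrps26. The reverse held for 1 member, Mrpl49, where the background was 2.57%. Without replicate 2 females lay above males for 4 members (12.4% of all probes), Mrpl18, Mrps18c, Mrps21 (A_64_P117620) and Mrps30. Males lay above females for 4 (9.15%), Mrpl15, Mrpl44, Mrpl49 and Mrps10. Females lay above males for 6 members without replicate 1 (9.05%), 23 without replicate 3 (8.22%) and 28 without replicate 4 (16.3%). In the same 3 fits males lay above females for 4 (8.29%), 2 (3.77%) and 6 (10.5%).

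Among small-subunit members, Mrps18c had the highest ratio. It is 1 of 3 mammalian proteins related to bacterial S18, with Mrps18a, which belongs to the large subunit despite its name, and Mrps18b. Its levels in females 1 to 4 were 12.07, 12.01, 11.94 and 11.76. The levels of males 1 to 4 were 11.54, 11.47, 11.65 and 11.83. Female 4 lay below male 4, so raw levels overlapped. The ratio was 0.32 ± 0.13 (limma, unadjusted p = 0.0627), and it was 0.17 without replicate 2. Its relatives stood at -0.06 ± 0.08 for Mrps18a and -0.10 ± 0.08 for Mrps18b.

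The Mrps18c probe was printed on 10 spots, and its spots varied widely within an array. The standard deviation of the ratio over its 10 spots was 0.46, 0.43, 0.40 and 0.39 on arrays 1 to 4, around means of 0.53, 0.53, 0.29 and -0.07. The same spread over spots was 0.09 to 0.13 for Mrps5, 0.12 to 0.16 for Mrps16, and 0.40 to 0.52 for Mrps23. For Mrpl53 it was 0.35 to 0.45 and for Mrps35 0.33 to 0.55. In all, 8 members were printed on 10 spots and 73 on 1.

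Mrps36 read 11.62, 11.54, 11.76 and 11.87 in females 1 to 4. Their male partners on the same arrays gave 11.20, 11.51, 11.36 and 11.95. Male 4 was the highest sample, so the sexes overlapped. The ratio was 0.19 ± 0.06 (limma, unadjusted p = 0.0363).

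Mrps21, the counterpart of bacterial S21, had 2 probes and ratios of 0.22 ± 0.09 and 0.10 ± 0.06. Mrps26, a small-subunit protein with no bacterial counterpart, read 13.47, 12.77, 13.40 and 12.82 in females 1 to 4. In males 1 to 4 it read 12.36, 13.20, 12.67 and 13.38. Its ratio was 0.21 ± 0.09 beside a dye effect of -0.71. Its Cy3 samples were the high ones in both sexes.

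On the other side, Mrps9 had a ratio of -0.22 ± 0.11 and Mrps27, a small-subunit protein with pentatricopeptide repeats, one of -0.20 ± 0.11. The dimmer probe of Mrpl50, a large-subunit protein with no bacterial counterpart, had a ratio of -0.15 ± 0.09. The probes of Mrps27 and of this Mrpl50 ratio were dim, at mean levels of 7.17 and 7.20, beside 6.52 for Mrps28. Over the processing alternatives their ratios ranged from -0.92 to -0.07 and from -0.51 to -0.06. Mrpl35, of the large subunit, gave -0.13 ± 0.09 by its dimmer probe and 0.17 ± 0.10 by its brighter probe. Mrpl10, a stalk protein, also split, with -0.09 ± 0.07 and 0.11 ± 0.08. The 2 probes of a gene thus had opposite signs for 2 of the 10 genes with 2 tested probes.

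Some members varied more between samples of 1 sex than between sexes. Mrps10, a protein of the head of the small subunit, read 6.75, 8.78, 6.74 and 6.68 in females 1 to 4. Males 1 to 4 gave 6.87, 8.75, 6.70 and 6.83. Both animals of array 2 stood far above the other 6, and its ratio was -0.05 ± 0.07. On arrays 1, 3 and 4 Mrps10 was dim, at 6.68 to 6.87, beside a mean level of 6.52 for Mrps28. The Mrps10 probe was well above background in 3 of 4 females and passed the filter through the males. The animals of an array share its single spot for Mrps10, so a difference between animals and one between spots cannot be told apart.

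For Mrpl52 the animals of array 2 were the lowest of each sex, at 9.77 for the female and 9.47 for the male. The 6 others lay between 10.27 and 10.96. Mrpl52 too had 1 spot on each array, so a difference between animals and one between spots cannot be told apart. Mrpl43, of the large subunit, read 10.35, 8.58, 9.69 and 10.31 in females 1 to 4. The 4 males stood at 9.42, 10.53, 9.64 and 10.26 in the same order. Female 2 was the lowest sample, and the ratio turned from -0.23 ± 0.38 to 0.27 ± 0.20 without replicate 2. The brighter Mrpl50 probe read 9.18, 7.70, 8.20 and 7.77 in females 1 to 4. The levels of males 1 to 4 were 8.16, 8.12, 8.64 and 9.21. Female 1 and male 4 stood highest, both in Cy3, and the ratio of -0.32 ± 0.31 became 0.05 without replicate 3. Mrps2, of the small subunit, moved from -0.16 ± 0.15 to 0.03 without replicate 2.

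More members passed the test for dye than the test for sex. A dye effect, the log2 ratio of Cy5 over Cy3 beyond that of probes of like brightness, passed an adjusted p of 0.05 for 16 of 79 members (limma), against 12.7% of all probes. Of these, 15 were towards Cy3 (9.82% of all probes) and 1, Mrpl18, towards Cy5 (2.89%). The largest were Mrpl46 at -1.20, Mrpl27 at -1.07, Mrpl41 at -1.07 and -1.03, and Mrpl2 at -1.01. An effect below -0.5 was found for 16 members (10.1% of all probes) and one above 0.5 for 0 (3.15%). Without replicate 2, 17 members passed the test for dye (15.7% of all probes), and without replicate 4, 24 did (29.3%). Without replicate 1 or 3, which share their dyes, 0 members and 0% of all probes passed.

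The dye effect was measured for each probe, and probes of 1 gene could differ in it. Besides Mrpl2, the probes of Mrpl40 stood at -0.48 ± 0.09 and 0.06 ± 0.06 and those of Mrpl50 at -0.61 ± 0.31 and 0.03 ± 0.09. Of the Mrpl40 and Mrpl50 probes, only the Mrpl40 probe at -0.48 passed the test for dye. The overlapping probes of Mrpl41, printed above, were alike at -1.03 and -1.07. The overlapping probes of Mrpl54, which differ at 3 positions, stood at -0.09 ± 0.07 for A_64_P004086 and 0.18 ± 0.06 for A_42_P613321. Neither Mrpl54 probe passed the test for dye. Across the 79 members the dye effect correlated with the number of C bases in the probe at r = -0.34, and across all probes at 0.01. This was the largest of the probe features looked at among members. The others were -0.25 for the percentage of G and C, 0.24 for T bases, 0.1 for mean level and -0.0 for G bases. These values describe probes on the same arrays.

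**Figure D5:**
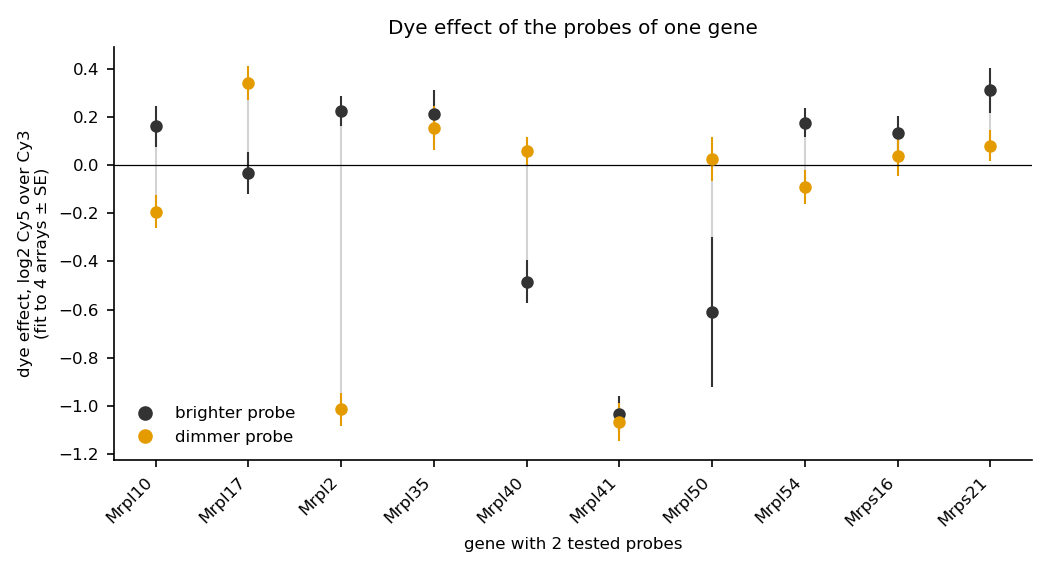
Dye effect (log2 of Cy5 over Cy3, vertical axis, ± SE of the fit) of the brighter and the dimmer probe of each of the 10 member genes with 2 tested probes (horizontal axis), grey lines joining probes of 1 gene. Both Mrpl41 probes lie near -1, while the Mrpl2 probes lie at 0.22 and -1.01.

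On single arrays the sign of the ratio followed the dye for about the same share of members as of all probes. It was opposite on arrays with opposite dyes, on all 4 arrays, for 34 of 79 members (43.0%), against 41.6% of all probes. Without replicate 2 it was 48 (60.8%), against 56.9%. Across members, ratios of arrays with the same dyes correlated at 0.84 (arrays 1 and 3) and 0.68 (arrays 2 and 4). Arrays with opposite dyes correlated at -0.81 to -0.58. Over all probes these values were 0.63, 0.49 and -0.63 to -0.31. These describe probes on shared arrays and are not replicates.

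The other genes of mitochondrial translation gave 0 calls at an adjusted p of 0.05 (limma). The share of all probes with a ratio above 0 was 56.1%. Of 7 mitoribosomal proteins with other names, 5 had a ratio above 0, the median was 0.07, and 0 passed an unadjusted p of 0.05. Dap3, a GTP-binding small-subunit protein also known from cell death, stood at -0.18 ± 0.08. Of 12 translation factors tested, 8 were above 0, with a median of 0.04. At an unadjusted p under 0.05 there were 0 higher in females (4.98% of all probes) and 1 higher in males (3.52%). This was Mrrf, the ribosome recycling factor, at -0.30 ± 0.10 (limma, unadjusted p = 0.0357).

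Of 19 tRNA synthetases and related enzymes, 12 were above 0, with a median of 0.02. At an unadjusted p under 0.05, 3 were higher in females (4.98% of all probes), and 0 in males (3.52%). They were Hars2 at 0.25 ± 0.07, Wars2 at 0.22 ± 0.07 and Cars2 at 0.19 ± 0.07, which charge the mitochondrial tRNAs for histidine, tryptophan and cysteine.

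Of 20 genes of mitoribosome assembly, 12 were above 0, with a median of 0.04. At an unadjusted p under 0.05, 2 were higher in males (3.52% of all probes) and 0 in females (4.98%). Eral1, a GTPase that binds the RNA of the small subunit, stood at -0.36 ± 0.08 (limma, unadjusted p = 0.0075, adjusted p = 0.555), and Ngrn at -0.23 ± 0.07. Of 24 genes of mitochondrial RNA synthesis and processing, 11 were above 0, with a median of -0.0041. Grsf1, a protein of mitochondrial RNA granules, stood at -0.38 ± 0.11 (limma, unadjusted p = 0.0264). It was the single gene of that list at an unadjusted p under 0.05 (8.5% of all probes).

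Without replicate 2, 57.4% of all probes were above 0. The counts were 6 of 7 mitoribosomal proteins with other names, 8 of 12 translation factors and 12 of 19 tRNA synthetases and related enzymes. Of the assembly genes 14 of 20 were above 0. For RNA synthesis and processing the count went from 11 to 18 of 24, and the median from -0.0041 to 0.04. At an unadjusted p under 0.05, 2 of the tRNA synthetases and related enzymes were higher in females without replicate 2 (4.17% of all probes), and 0 were without replicate 1 or 3 (1.17% and 1.26%). Without replicate 2, 0 translation factors passed that threshold. In the same fit 1 assembly gene was higher in females and 1 in males, and 1 gene of RNA synthesis and processing was higher in males. The share of all probes higher in males was 3.82%.

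Cytosolic ribosomal proteins and the nuclear-encoded subunits of oxidative phosphorylation, both taken by gene name, are given for comparison. Of 92 cytosolic ribosomal protein genes 84 were above 0 (56.1% of all probes), with a median of 0.15. That median was 0.45 on array 2 and 0.02 to 0.10 on the others. Of 83 subunits of oxidative phosphorylation 60 were above 0, with a median of 0.05. Without replicate 2 the counts were 72 of 92, with a median of 0.06, and 46 of 83, with a median of 0.0037 (57.4% of all probes). The difference between these lists and the mitochondrial ribosomal proteins was not tested.

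Promoters were searched in RefSeq entries (GRCr8, 250 bases before to 50 after each start), which matched 56 of the 70 genes with 58 entries. Nuclear respiratory factors and YY1 are known regulators of nuclear genes for mitochondria. On either strand, CCGGAAG, the core of GABPA (NRF-2) sites, was in 18 member entries (31.0%), against 8.75% of all 33469 entries. AAGATGGC, a YY1 motif, was in 14 (24.1% against 3.17%), and the NRF-1 motif, GCGCA and GCGC with 1 base between, in 8 (13.8% against 4.25%). The E-box CACGTG was in 6 (10.3% against 6.42%) and the cyclic AMP element TGACGTCA in 1 (1.72% against 1.83%). A match is a description of these letters and not a site.

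Examples from members named above are given as 30 bases in the gene's direction, with the motif in capitals. Mrpl3 (chr8:114548969-114548998, plus strand) and Mrps18c (chr14:9123027-9123056, minus strand) hold the GABPA letters, the latter in reverse complement just after an E-box. Mrpl46 (chr1:142116988-142117017, minus strand) holds the YY1 letters 24 bases after its start. These members had ratios of -0.28, 0.32 and 0.23, so members with a match stood on both sides of 0.
Mrpl3: tgagaaacggaCCGGAAGtggctcagctgt
Mrps18c: gtgtcacgtgaCTTCCGGcccggggagcgc
Mrpl46: gggaagacggaAAGATGGCggcgcccatag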

How the data were processed

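Hypothalamic RNA of 4 female and 4 male rats was measured on 4 two-colour Agilent arrays. The submitters' processing notes name Agilent Feature Extraction 10.7.3.1 for reading the scans. Spot, background and processed signals are intensity values per the file headers, and the scanner's log ratio is a log10 value of red over green. The authors deposited a table of log2 values, which equal the log2 of background-subtracted median signal less 1 constant per column, within 0.01 for 100% of values. Each of its columns has a median of 0, and columns of other samples numbered 0.

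Mean signals were corrected with normexp (offset 50) and normalized by loess within arrays, in R 4.3.3 with the packages limma (3.58.1) and data.table (1.17.8). Spots marked as outliers were dropped, and a probe's remaining spots were averaged. Tested probes had more than 0.5 of their spots well above background in each sample of either sex or both. The log2 ratio was fitted with sex and dye terms (lmFit, eBayes) over 21995 probes, with Benjamini-Hochberg adjustment over all of them. Levels by sample are separate-channel values after loess and Aquantile. The steps were tested on simulated data.

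The array that each pair shared is the block, since ratios are taken within it. The deviations of its 2 animals from their sex's mean correlated over probes at 0.57, 0.65, 0.41 and -0.05 for arrays 1 to 4.

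The naming rule took members with the 8 smallest p in each direction, genes with 2 probes, the 5 largest dye effects, the 5 largest spreads between animals, members that failed the filter, and up to 3 genes of each other mitochondrial list. Further members were named after their values were seen (Mrpl12, Mrpl23, Mrpl48, Mrpl49, Mrpl53, Mrpl55, Mrps5, Mrps11, Mrps18a, Mrps18b, Mrps21l, Mrps23, Mrps24, Mrps26, Mrps30, Mrps35, Tcp1 and the neighbours of other members among them). Counts over lists without each replicate were added after the data were seen. Members and lists were chosen with earlier results of these data known. Probe positions are those of the array files on rn4; promoters and current names come from RefSeq (GRCr8), with 14 of the 70 genes unmatched and not analysed for promoters. Python 3.11.15, pandas 2.3.3 and matplotlib 3.10.9 served for summaries and plots.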

Additional observations from a re-analysis of the deposited data

Results flagged for a closer look

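In 4 of the 76 groups of 4 samples examined, after removal of the dye effect, a single sample lay far from the other 3. The groups were those of named members and of medians over the member lists. Chance alone flags about 1 in 20 groups that were not picked for their spread. Some members, Mrps10 among them, were named for a large spread between animals, so that rate does not hold for them. Mrps10 read 8.78 in female 2, where the other females lay between 6.68 and 6.75, and 8.75 in male 2, where the other males lay between 6.71 and 6.88. Both animals were on array 2 and in opposite dyes. Mrpl18 read 11.97 in female 3, below the other females at 12.25 to 12.27. Mrpl10, by its probe A_44_P427067, read 8.76 in female 2, below the other females at 8.92 to 8.94.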

How the results depend on the processing

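Under the 15 alternatives, 43 of 50 named probes and genes kept the sign of their ratio, and 9 of 746 values changed it. The count past an adjusted p of 0.05 was 0 except without replicate 4, with a range of 0 to 2 over the arrays left out. The count at an unadjusted p under 0.05 that was higher in females, 5 in the fit reported (4.98% of all probes), was 0 without a dye term (1.16%). It was 1 with no background correction (3.76%), with offset 16 (4.54%), with median centring (1.69%), with the scanner software's log ratio (3.36%), with the authors' value table (1.37%), with an intensity trend and robust prior (4.15%), and with at least 1.5-fold added (0.814% in either direction). Leaving out arrays gave 1 to 15. The count higher in males, 0 in the fit reported, was 2 with the scanner's log ratio (4.69%), 1 with the authors' value table (8.61%), 1 without a filter (3.18%) and 0 to 5 over arrays left out. Without the array as block (no replicate block), the median was 0.087 and the adjusted count was 0, as with the block. The count higher in females was 4 (4.41%), with Mrpl18 and Mrpl38 of the 5 among them and Mrps36 and both Mrpl2 probes not. The median over members lay between 0.012 (authors' value table, where that of all probes was -0.064) and 0.12. The count of ratios above 0, added after the data were seen, was 49 of 79 with median centring (53.0% of all probes), 41 of 76 with the authors' value table (38.0%) and 55 to 64 otherwise (52.7% to 57.4%). With median centring and with the authors' value table, Mrpl17 A_64_P128180 turned to -0.0094 and -0.054, and Mrpl40 A_64_P044476 to -0.059 and -0.098. With that table Mrpl41 A_64_P127357 turned to -0.00089 and Mrps16 A_64_P031606 to -0.023. Over arrays left out, Mrpl43 ranged from -0.73 to 0.27 and Mrps2 from -0.36 to 0.034, highest without replicate 2, and Mrpl50 A_44_P117072 from -0.69 to 0.046, highest without replicate 3. The cause of these changes was not tested. Precision is limited by 4 arrays, with 2 residual degrees of freedom, and by the dimmer Cy5 signal.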
